A study of Mus musculus with 7 samples.

Results

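Rora encodes the nuclear receptor RORα, and its locus was followed here through the open chromatin of CD4+ T cells sorted from infected mice. The locus was defined as the gene (GRCm38, chr9:68653786-69388246, plus strand, 734.5 kb) with 10 kb on each side, and it held 108 of the 113820 regions of the ATAC-seq table. Rora was selected on the number of its regions that differed between these same populations in an earlier reading of the data. All differences at Rora are therefore given as descriptions with no test, and the calls among its regions were counted but nothing was read from their number.

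ATAC-seq uses a transposase that inserts adapters into accessible DNA, so that insertions per kilobase measure how open a region is. Each library was made from 50000 CD4+ T cells of C57BL/6 reporter mice taken on day 8 after subcutaneous infection with 500 L3 larvae of the helminth N. brasiliensis. LN IL-4+ cells (n = 2) and lung IL-4+ cells (n = 3) were GFP+ cells of IL-4-4get mice from the mediastinal lymph node and the lung, and lung IFNγ+ cells (n = 2) were YFP+ cells of IFN-gamma GREAT mice. All were sorted as live CD3e+ CD4+ cells without CD8, B220, CD11b, CD11c, NK1.1 or Ter119. GFP in the 4get line marks transcription of Il4 and not secretion of the protein. No uninfected or reporter-negative cells were analysed here, so that infection was shared by every library. The lungs were digested with enzymes while the lymph nodes were dissociated mechanically, so tissue and preparation cannot be told apart. Likewise, IL-4+ and IFNγ+ lung cells were from separate reporter lines, and cytokine and line cannot be told apart. In sorted bulk cells, fewer cells with an open region and a less open region in each cell cannot be told apart either. The study describes its libraries as coming from individual mice of a single experiment. The labels do not say whether LN and lung IL-4+ libraries came from the same animals.

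RORα activates transcription from DNA elements made of an A/T-rich stretch and the nuclear receptor core motif AGGTCA. It is a limb of the circadian clock, where it drives Arntl in opposition to the REV-ERB repressors Nr1d1 and Nr1d2, and it is known for its part in cerebellar development. Among lymphocytes it is required for group 2 innate lymphoid cells and contributes to the Th17 programme, and it is present in subsets of tissue T cells.

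The annotation gives Rora 2 protein-coding transcripts. Rora-201 starts at the beginning of the gene, and Rora-202 starts 635.9 kb further on and makes a protein with another amino terminus. The regions were numbered R1 to R108 along the gene. Sequences are shown for the 3 called regions with the largest differences and for the start of Rora-202, since the results below turn on them. They are the plus strand of GRCm38, with bases in capitals where a searched motif was found on either strand. R90 (central 300 bases, chr9:69362111-69362410, intron), R10 (central 300 bases, chr9:68969427-68969726, intron), R50 (central 300 bases, chr9:69304435-69304734, intron) and the 85 bases of R40 before the Rora-202 start (chr9:69289597-69289681) read as follows.
R90: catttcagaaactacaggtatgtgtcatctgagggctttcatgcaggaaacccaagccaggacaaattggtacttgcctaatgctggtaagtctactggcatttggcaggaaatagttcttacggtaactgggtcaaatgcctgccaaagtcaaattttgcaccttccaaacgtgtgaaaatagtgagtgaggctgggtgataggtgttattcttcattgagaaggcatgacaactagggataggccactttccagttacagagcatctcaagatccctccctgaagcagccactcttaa
R10: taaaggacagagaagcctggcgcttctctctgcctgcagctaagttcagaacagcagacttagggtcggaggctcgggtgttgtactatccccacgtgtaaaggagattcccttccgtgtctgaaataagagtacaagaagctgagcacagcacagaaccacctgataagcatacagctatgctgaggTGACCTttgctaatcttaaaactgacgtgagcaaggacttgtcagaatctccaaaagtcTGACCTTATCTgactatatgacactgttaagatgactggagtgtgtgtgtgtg
R50: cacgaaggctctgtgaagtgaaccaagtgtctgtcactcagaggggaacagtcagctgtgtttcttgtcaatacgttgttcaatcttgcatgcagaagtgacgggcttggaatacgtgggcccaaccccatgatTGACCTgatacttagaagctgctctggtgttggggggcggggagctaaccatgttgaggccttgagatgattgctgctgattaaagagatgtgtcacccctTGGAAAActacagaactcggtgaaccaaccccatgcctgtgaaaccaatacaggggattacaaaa
R40: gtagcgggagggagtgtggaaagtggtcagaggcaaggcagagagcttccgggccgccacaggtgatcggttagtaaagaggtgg

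In R10, the capitals mark TGACCT, the core motif AGGTCA read on the other strand, at bases 189 and 248, the latter sharing 1 base with TTATCT, the GATA motif AGATAA on the other strand. In R50, they mark TGACCT at base 135 and the NFAT motif TGGAAAA at base 236. R90 and the stretch before the Rora-202 start held none of the 8 motifs searched.

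The regions were spread unevenly along the gene. Before the Rora-202 start, 39 regions lay in 635.9 kb and covered 3.8% of the sequence. After it, 66 regions lay in 98.6 kb and covered 53.0%, or 67.0 regions per 100 kb compared with 6.1 per 100 kb before the start. The first region analysed lay 205.2 kb after the Rora-201 start, so that no value is given here for that start. By annotation, 93 of the 108 regions were intronic and 11 overlapped a coding-transcript exon. Their median width was 556 bp, compared with 486.5 bp over all regions, and the widest, R45 (chr9:69297107-69300689), spanned 3583 bp of intron after the Rora-202 start. Of the 3674 protein-coding genes with at least 10 regions in such a window, 8 had more regions than Rora, and the median gene had 14.

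The libraries held between 14005923 and 91681969 rebuilt insertions, counts inferred from tied values that are lower bounds. Rora regions held between 0 and 7304 of them per library, with medians between 42 and 141.5. The libraries also fell into a narrow and a wide class by the interquartile range of log2 counts over all regions, which was 1.65 to 1.74 in 3 libraries (LN replicate 1 with lung IL-4+ replicates 2 and 3) and 2.89 to 3.07 in the other 4, including both IFNγ+ libraries. Markers of the sorted cells were open. Summed density within 1 kb of the starts of 6 CD4+ T cell genes, such as Cd3e and Cd4, was 157 to 201 in LN IL-4+, 135 to 210 in lung IL-4+ and 132 to 134 in lung IFNγ+ cells. No region analysed here lay at the starts of Cd8a, Csf1r, Sftpc, Cdh5, the NK cell gene Ncr1 or any of 3 B cell genes. Other sums, each over fewer genes, were 2.95 to 7.31 for CD8 T cell, 6.04 to 13.8 for myeloid, 8.79 to 12.5 for epithelial, 25.2 to 41.2 for endothelial and 41.2 to 50.3 for fibroblast markers. Single genes were not all lower than T cell genes, with Col1a1 at 29.5 to 37.2, Pecam1 at 25.2 to 41.2 and Cd3e at 20.7 to 34.2. The myeloid gene Itgam had 7.77 and 5.39 in lung IFNγ+ and 0.898 to 2.89 in the other libraries. The other myeloid gene with a region, Cd14, did not separate them. It had 7.8 and 4.26 in LN IL-4+, 6.37, 7.38 and 5.7 in lung IL-4+ and 6.01 and 5.49 in lung IFNγ+ libraries. The single NK marker with regions, Klrb1c, had 4.35 to 5.81 in LN IL-4+, 5.47 to 8.89 in lung IL-4+ and 8.3 to 10.4 in lung IFNγ+ libraries, lowest in the LN as at Rora. The part of Klrb1c and of the other markers in the values at Rora was not tested.

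The Rora locus was about 2.14-fold more accessible in lung IL-4+ than in LN IL-4+ cells and 1.91-fold more accessible in lung IFNγ+ cells than in the LN. Accessibility was summed over the 108 regions as normalized insertions, of which every library had between 980681 and 980715 over the whole table. The sums were 331.6 and 341.5 in the LN IL-4+ libraries, 717.0, 717.7 and 736.8 in the lung IL-4+ libraries, and 646.8 and 638.7 in the lung IFNγ+ libraries. The populations did not overlap, and the order was lung IL-4+ (723.8 ± 11.3, SD, n = 3), lung IFNγ+ (642.8 ± 5.72, SD, n = 2) and LN IL-4+ (336.6 ± 7.02, SD, n = 2). On the log2 scale of the sums, lung IL-4+ exceeded LN IL-4+ by 1.10, lung IFNγ+ exceeded LN IL-4+ by 0.93, and lung IL-4+ exceeded lung IFNγ+ by 0.17. The step between the lung populations was small beside the other 2, and it was 0.09 with median centring and 0.26 with quantile normalization. Both contrasts with the lymph node rest on the same LN libraries.

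Within the narrow class, lung IL-4+ exceeded LN IL-4+ by 1.13 (2 libraries against 1), and within the wide class by 1.07 (1 against 1). Within the wide class, lung IFNγ+ exceeded LN IL-4+ by 0.91 (2 against 1) and lung IL-4+ exceeded lung IFNγ+ by 0.16 (1 against 2). The median of 3674 genes was at -0.02, -0.05 and 0.02 in the 3 contrasts.

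**Figure D1:**
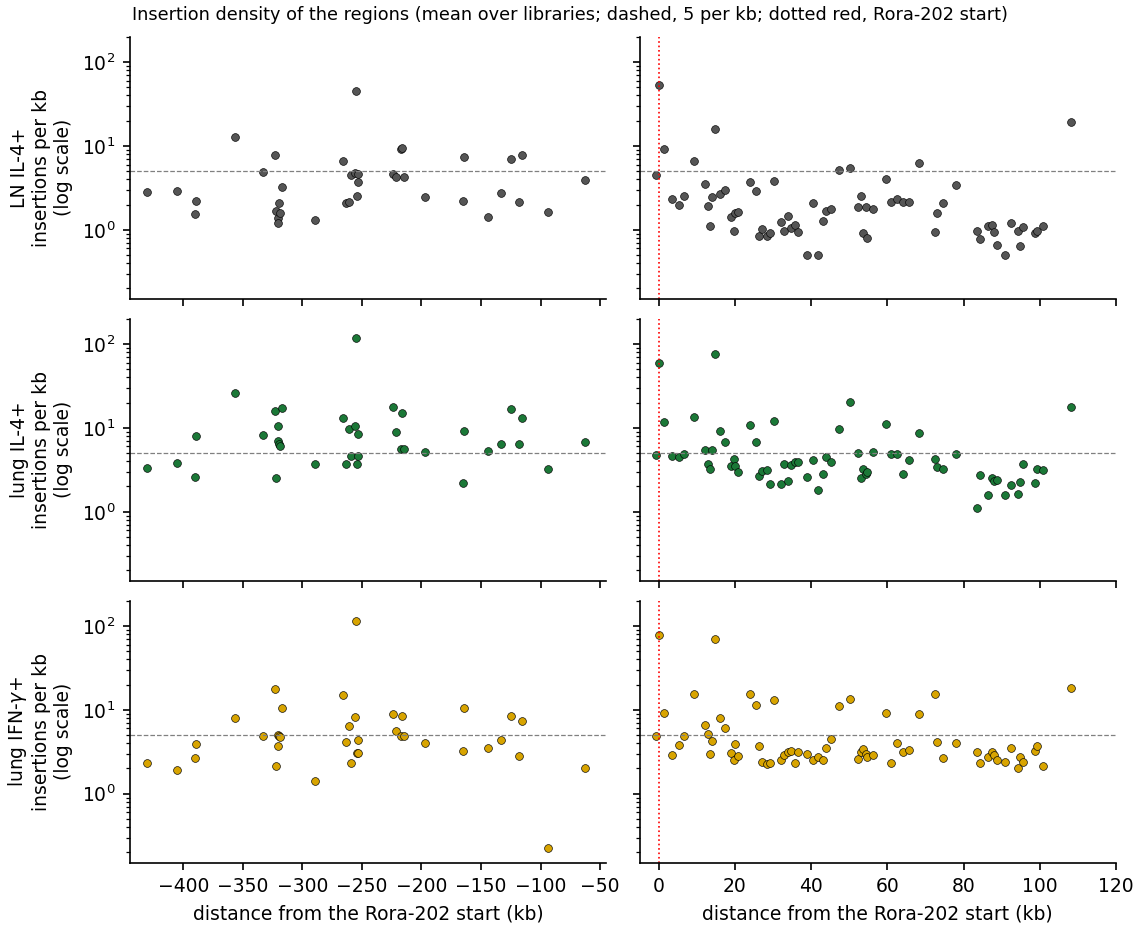
Insertion density (insertions per kb, log axis, mean over the libraries of a population) of the 108 regions against their distance from the Rora-202 start in kb, with the sparse stretch before the start on the left, the dense stretch after it on the right, and 1 row per population. Regions above the dashed line at 5 insertions per kb number 17 in LN IL-4+, 44 in lung IL-4+ and 30 in lung IFNγ+ cells.

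The most open regions of the locus were shared by all 3 populations. R20 (chr9:69034210-69034893), an intronic region at -255.1 kb from the Rora-202 start, had the highest mean density, 45.5 insertions per kb in LN IL-4+, 118 in lung IL-4+ and 115 in lung IFNγ+ cells. Its log2 density was 5.03 and 5.86 in the LN IL-4+ libraries, 6.95, 6.79 and 6.90 in the lung IL-4+ libraries and 6.89 and 6.81 in the lung IFNγ+ libraries. The LN libraries lay below all lung libraries but apart from each other. R20 differed from LN IL-4+ by 1.43 in lung IL-4+ and 1.40 in lung IFNγ+ cells, less than 3-fold, and was not called in any contrast. This region alone held between 22.4 and 39.8 normalized insertions in LN and between 75.8 and 84.7 in lung libraries.

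Regions at the Rora-202 start varied little. R40 (chr9:69289597-69290040), which contains the first exon of Rora-202, had log2 densities of 5.66 and 5.78 in LN IL-4+, 5.86, 5.90 and 5.94 in lung IL-4+ and 6.27 and 6.30 in lung IFNγ+ libraries. The populations did not overlap there, but the differences were 0.18, 0.57 and -0.39 in the 3 contrasts, and R40 was the region with the highest density in LN IL-4+ cells. The 3 regions within 1 kb of this start summed to 43.4 and 39.7 in LN IL-4+, 46.6, 46.7 and 55.1 in lung IL-4+ and 54.5 and 51.5 in lung IFNγ+ libraries. The lung libraries overlapped each other and lay above the LN libraries by 0.25 (lung IL-4+) and 0.35 (lung IFNγ+) on the log2 scale, less than in the introns on either side.

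After the Rora-202 start, the sums of the lung populations lay close together. The 64 regions of this stretch summed to 154.0 and 128.4 in LN IL-4+, 326.7, 367.1 and 388.4 in lung IL-4+ and 355.5 and 356.1 in lung IFNγ+ libraries. The IFNγ+ libraries fell inside the range of the lung IL-4+ libraries, and the lung populations differed by 0.02 on the log2 scale, between -0.14 and 0.09 over the other settings. They exceeded LN IL-4+ by 1.36 (lung IL-4+) and 1.34 (lung IFNγ+). Each of the 64 regions had a higher mean in lung IL-4+ than in LN IL-4+ cells, and each had a higher mean in lung IFNγ+ cells than in the LN.

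Before the Rora-202 start, in the introns of Rora-201, the lung populations separated. The 38 regions summed to 116.3 and 153.6 in LN IL-4+, 319.1, 283.9 and 274.4 in lung IL-4+ and 217.1 and 209.8 in lung IFNγ+ libraries, with no overlap between populations. Lung IL-4+ exceeded LN IL-4+ by 1.13, lung IFNγ+ exceeded LN IL-4+ by 0.68, and lung IL-4+ exceeded lung IFNγ+ by 0.45. Among the wide-class libraries alone these were 1.05 (1 against 1), 0.47 (2 against 1) and 0.58 (1 against 2). Without LN replicate 1, the differences of lung IL-4+ and lung IFNγ+ from LN IL-4+ were 0.93 and 0.47. Without LN replicate 2, they were 1.33 and 0.88. For lung IFNγ+ against LN IL-4+, 27 of the 38 regions had a higher mean and 11 a lower one. The difference between the stretches was not tested, since the locus was chosen on these contrasts. In this stretch, 32 of 38 regions had a higher mean in lung IL-4+ cells than in their IFNγ+ counterparts, compared with 31 of 64 after the start.

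**Figure D2:**
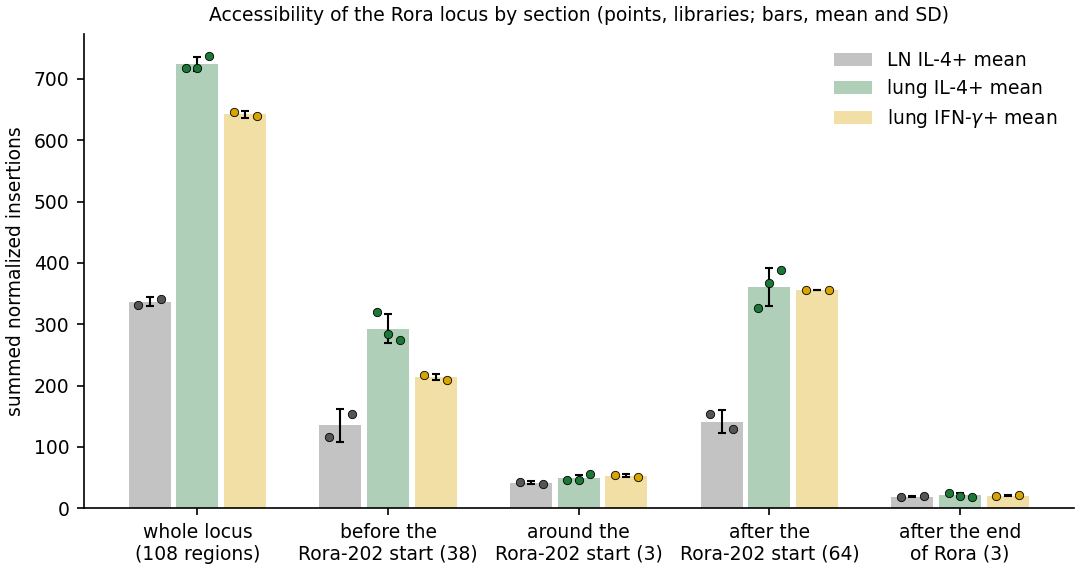
Summed normalized insertions (vertical axis) of the whole locus and its sections, with a point per library and bars for the mean and SD of each population (n = 2 for LN IL-4+, n = 3 for lung IL-4+, n = 2 for lung IFNγ+). In the whole locus the LN libraries sit at 331.6 and 341.5 and all lung libraries between 638.7 and 736.8, and the lung populations separate before the Rora-202 start but not after it.

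The regions nearest the window's edges were mixed. R108 (chr9:69397512-69398393), which overlaps the start of the neighbour Ice2, a subunit of the little elongation complex, had log2 densities between 4.05 and 4.37 in all 7 libraries. R106 (chr9:69388791-69389397) and R107 (chr9:69389915-69390997), between the end of Rora and Ice2, lay lower, at -0.19 to 0.42 in LN and 1.02 to 2.23 in lung libraries, with no overlap. The window of Ice2, which shares R105 to R108 with that of Rora, summed to 23.5 to 33.4. That of the upstream neighbour Vps13c, a lipid transfer protein, summed to 28.9 to 38.8. In Vps13c, 1 of 5 regions was called lower in lung IL-4+ cells than in the LN. On the upstream side, the first region inside the window was R1 (chr9:68858944-68859344), an intronic region 205.2 kb after the Rora-201 start. Its log2 densities were 1.66 and 1.32 in LN IL-4+, 2.44, 0.95 and 1.31 in lung IL-4+ and 1.33 and 1.09 in lung IFNγ+ libraries. The nearest regions left outside were at chr9:68028634-68029034, 624.8 kb before the gene, with 0.01 and 1.06 in LN and 1.93 to 2.75 in lung libraries, again without overlap, and at chr9:69398892-69399292, 10.6 kb after it, with 0.69 to 1.70 in all libraries.

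By a mean density of at least 5 insertions per kb, 17 regions of the locus (15.7%) were accessible in LN IL-4+, 44 (40.7%) in lung IL-4+ and 30 (27.8%) in lung IFNγ+ cells. Over all regions of the table these shares were 43.7%, 43.6% and 42.9%. Of these, 16 were accessible in all populations, 12 in both lung populations only, and 0 in LN IL-4+ cells only. Lung IL-4+ cells alone opened 15 regions past this level, of which 13 (R4, R6, R9 to R12, R23, R28, R29, R32, R33, R35 and R38) lay before the Rora-202 start and 2 (R49 and R83) after it. Several were close to the level, such as R28 with densities of 4.30 in LN IL-4+, 5.54 in lung IL-4+ and 4.81 in lung IFNγ+ cells. R4 (chr9:68900074-68900752) stood further apart at 2.19, 8.02 and 3.93, and R38 (chr9:69226501-69227586) at 3.97, 6.78 and 2.00. Lung IFNγ+ cells alone passed the level at R47 and R90.

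Calls were made by the limma fit of all 113820 regions, at a Benjamini-Hochberg adjusted p under 0.05 with at least a 3-fold difference. Between lung IL-4+ and LN IL-4+ cells, 11 regions of Rora were called higher in lung, whereas 1.05% of all regions were, and 0 were called lower, whereas 0.695% of all regions were. Between lung IFNγ+ cells and LN IL-4+ cells, 8 were called higher (2.17% of all regions) and 0 lower (0.862% of all regions). Between the lung populations 0 were called in either direction by limma on the deposited values, whereas 0.108% of all regions were called higher in lung IL-4+ and 0.387% lower. Without the adjustment, 18 of the 108 regions had a p below 0.05 in this contrast, near the 14.8% of all regions that did, and voom on the rebuilt counts called 2. In the contrasts with LN IL-4+ cells, 65 and 50 regions of Rora had an unadjusted p below 0.05 in limma. Among all regions 16.2% and 18.5% did. At Rora, 31 and 26 of these were at least 3-fold higher and 0 as much lower. The share of all regions with this p and fold was not computed, so nothing is read from these counts. At Rora, voom called 11 higher and 0 lower in each contrast. Over all regions voom called 979 higher and 876 lower in the first, and 3656 higher and 2239 lower in the second. These counts were part of the choice of Rora and are not evidence for it. Leaving out lung IL-4+ replicate 2 left 3 calls between lung IL-4+ and LN IL-4+ cells, and over all regions 250 higher and 125 lower. Leaving out either lung IFNγ+ library left a lone library in its group. The log2 locus difference from LN IL-4+ cells was then 0.92 (without replicate 1) and 0.94 (without replicate 2). Calls over all regions also fell in those fits, so calls lost there were not particular to Rora.

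Most regions of Rora separated the libraries without being called. In 78 of 108 regions every lung IL-4+ library was above both LN libraries, whereas this held for 13.6% of all regions, and in 1 region (R26) every one was below, whereas this held for 14.3%. In 80 regions both lung IFNγ+ libraries were above both LN libraries (26.5% of all regions) and in 6 both were below (27.2% of all regions). Between the lung populations, 31 regions were higher in every lung IL-4+ library (19.4% of all regions) and 12 lower (21.2% of all regions). The median difference over the 108 regions was 1.18 for lung IL-4+ against LN IL-4+, 1.11 for lung IFNγ+ against LN IL-4+ and 0.17 between the lung populations, on a log2 scale on which all regions had medians of -0.03, -0.03 and -0.01. The exceptions were few. R26 (chr9:69072094-69072561), chosen after its values were seen, had 3.10 and 3.30 in LN IL-4+, 2.50, 3.02 and 1.52 in lung IL-4+ and 2.49 and 2.05 in lung IFNγ+ libraries.

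**Figure D3:**
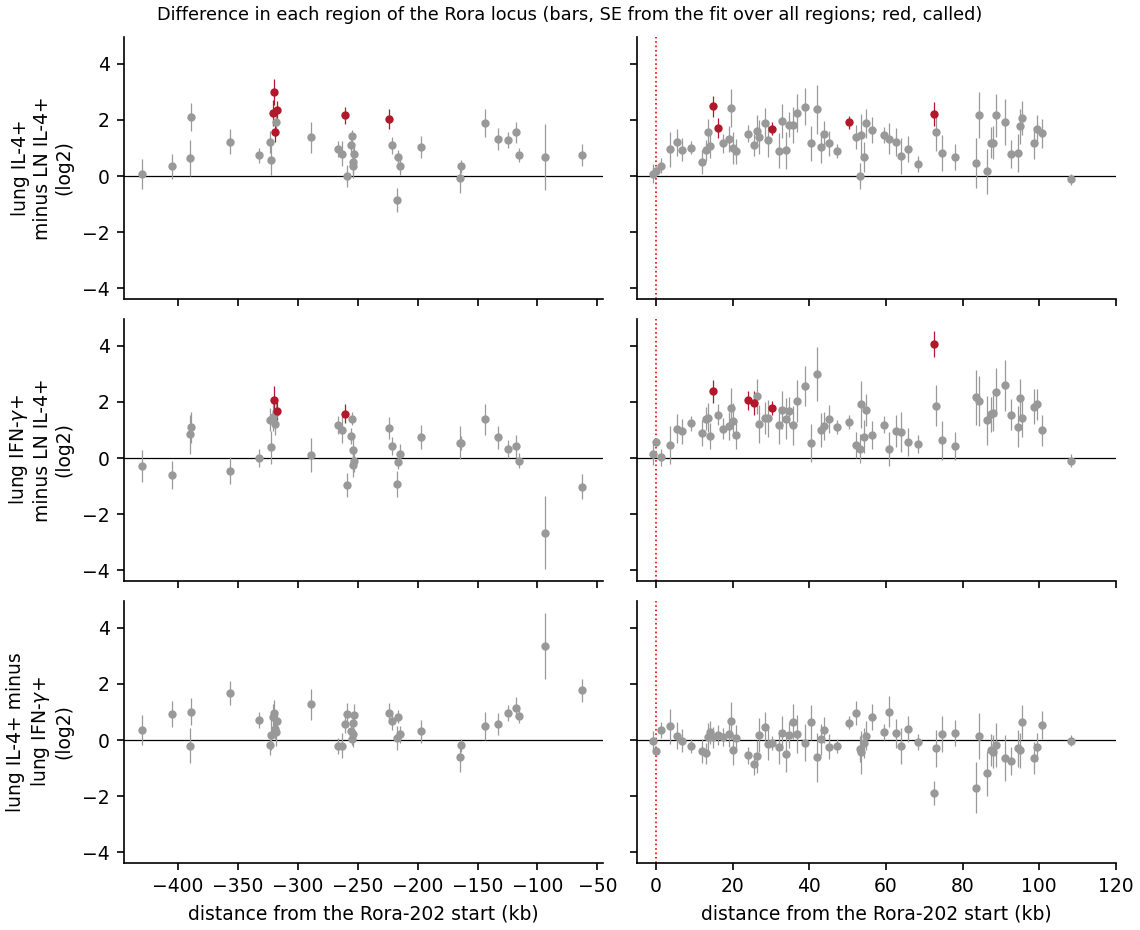
Log2 difference in density between populations for each of the 108 regions (points, with SE from the fit) against the distance from the Rora-202 start in kb, 1 row per contrast, with called regions in red. Red points number 11, 8 and 0, all above 0, and the lowest point of the middle row, R37 at -2.66, rests on 0 to 62 rebuilt insertions per library.

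The calls fell on 13 intronic regions, of which 6 were called in both contrasts with LN IL-4+ cells (R10, R13, R17, R50, R63 and R90), 5 for lung IL-4+ cells alone (R9, R11, R24, R51 and R77) and 2 for lung IFNγ+ cells alone (R57 and R58). A call in one contrast and not in the other does not show that the lung populations differed. R9, R10, R11 and R13 lay close together, at -320.6 to -317.3 kb from the Rora-202 start, and 7 called regions lay between 14.9 and 72.6 kb after it.

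R10 (chr9:68969371-68969782), the region with a pair of AGGTCA matches shown above, had the largest difference between lung IL-4+ and LN IL-4+ cells. Its log2 density was 0.12 and 0.37 in the LN IL-4+ libraries, 4.03, 2.49 and 3.25 in the lung IL-4+ libraries and 2.05 and 2.54 in the lung IFNγ+ libraries. It was nearly closed in the LN libraries, with 28 and 18 rebuilt insertions, and the lung populations overlapped only between lung IL-4+ replicate 2 and IFNγ+ replicate 2. The differences from LN IL-4+ were 3.01 (SE 0.46) for lung IL-4+ and 2.05 (SE 0.51) for lung IFNγ+ cells. Its neighbour R13 (chr9:68972027-68972795) followed with 1.61 and 1.78 in LN IL-4+, 4.56, 3.98 and 3.62 in lung IL-4+ and 3.49 and 3.25 in lung IFNγ+ libraries. Here all lung IL-4+ libraries were above both IFNγ+ libraries. The differences from LN IL-4+ were 2.35 (SE 0.31) and 1.67 (SE 0.33). For lung IL-4+ cells, both regions kept their call with each library left out, but for lung IFNγ+ cells R10 was called in 5 of 16 other settings and R13 in 9. R10 lost that call without any 1 library other than lung IL-4+ replicate 1, and R13 lost it without LN replicate 1, lung IL-4+ replicate 2 or either IFNγ+ library.

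R17 (chr9:69028791-69029413) and R24 (chr9:69065814-69066279), further along the gene, had the same order of populations. R17 had 1.06 and 1.16 in LN IL-4+, 3.57, 3.17 and 3.06 in lung IL-4+ and 2.78 and 2.61 in lung IFNγ+ libraries. R24 had 1.48 and 2.68 in LN IL-4+, 4.45, 3.92 and 3.99 in lung IL-4+ and 3.06 and 3.25 in lung IFNγ+ libraries. In both, no libraries of different populations overlapped, and the LN libraries lay further apart in R24 than in R17. Without LN replicate 1, the difference of R24 between lung IL-4+ and LN IL-4+ was 1.43 in place of 2.04 and not called, and it was not called without lung IL-4+ replicate 2 or 3. R17 lost its call for lung IL-4+ without replicate 2 (2.21 in place of 2.16), and for lung IFNγ+ it was called in 7 of 16 other settings.

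R50 (chr9:69304267-69304903), 14.9 kb after the Rora-202 start, was the most open of the called regions and differed little between the lung populations. Its log2 density was 2.93 and 4.57 in LN IL-4+, 6.48, 6.12 and 6.10 in lung IL-4+ and 6.11 and 6.15 in lung IFNγ+ libraries. All lung libraries lay close together, whereas the LN libraries lay far apart, with both below the lung. The differences from LN IL-4+ were 2.48 (SE 0.37) and 2.38 (SE 0.40), and mean densities were 15.7 insertions per kb in LN IL-4+, 75.7 in lung IL-4+ and 70.2 in lung IFNγ+ cells. These differences depended on the LN library used. Without LN replicate 1 they were 1.66 and 1.56, the latter not called, and without LN replicate 2 they were 3.30 and 3.21. The call for lung IL-4+ was lost without lung IL-4+ replicate 2 (2.54), and that for lung IFNγ+ without either of its own libraries (2.36 and 2.40).

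R63 (chr9:69319256-69320637) had libraries that lay close together within each population. It had 1.91 and 1.92 in LN IL-4+, 3.57, 3.60 and 3.64 in lung IL-4+ and 3.64 and 3.77 in lung IFNγ+ libraries. The lung libraries were about 1.69 (SE 0.23) and 1.79 (SE 0.26) above LN IL-4+ and touched each other at 3.64. The calls were lost without lung IL-4+ replicate 2 (1.69) and without either IFNγ+ library (1.72 and 1.86), respectively. R77 (chr9:69339198-69340854), which kept its call with each library left out, had 2.22 and 2.67 in LN IL-4+, 4.43, 4.34 and 4.30 in lung IL-4+ and 3.65 and 3.83 in lung IFNγ+ libraries. It was highest in lung IL-4+ cells, in contrast to R57 (chr9:69312420-69314932), which had 2.13 and 1.61 in LN IL-4+, 2.90, 3.58 and 3.66 in lung IL-4+ and 3.93 in both lung IFNγ+ libraries. R57 lost its call without either IFNγ+ library (2.06).

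R90 (chr9:69362026-69362496), 72.6 kb after the Rora-202 start, was the called region in which lung IFNγ+ cells stood furthest above the rest. Its log2 density was 0.23 and -0.54 in LN IL-4+, 2.19, 1.51 and 2.43 in lung IL-4+ and 4.09 and 3.75 in lung IFNγ+ libraries, from 32 and 9, 71, 56 and 54, and 420 and 561 rebuilt insertions. No libraries of different populations overlapped. It exceeded LN IL-4+ by 4.07 (SE 0.47) in lung IFNγ+ cells and by 2.20 (SE 0.43) in lung IL-4+ cells, and lung IL-4+ was 1.88 (SE 0.43) below lung IFNγ+ without being called. Mean densities were 0.931 insertions per kb in LN IL-4+, 4.26 in lung IL-4+ and 15.2 in lung IFNγ+ cells. The call for lung IFNγ+ was lost without either IFNγ+ library (3.90 and 4.24). That for lung IL-4+ held in 6 of 16 other settings and was lost without LN replicate 2 (1.81), lung IL-4+ replicate 2 (2.46) or 3 (2.00) or either IFNγ+ library. The other called regions, R9, R11, R51 and R58, had log2 densities between 0.16 and 1.74 in LN IL-4+ and between 1.77 and 3.66 in lung libraries. Their calls were less firm, with R9 called in 6, R11 in 2, R51 in 7 and R58 in 11 of 16 other settings. With each library left out in turn, R9 was called only without LN replicate 2, R11 in no case and R51 only without lung IL-4+ replicate 1, while R58 lost its call without either LN or either IFNγ+ library.

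**Figure D4:**
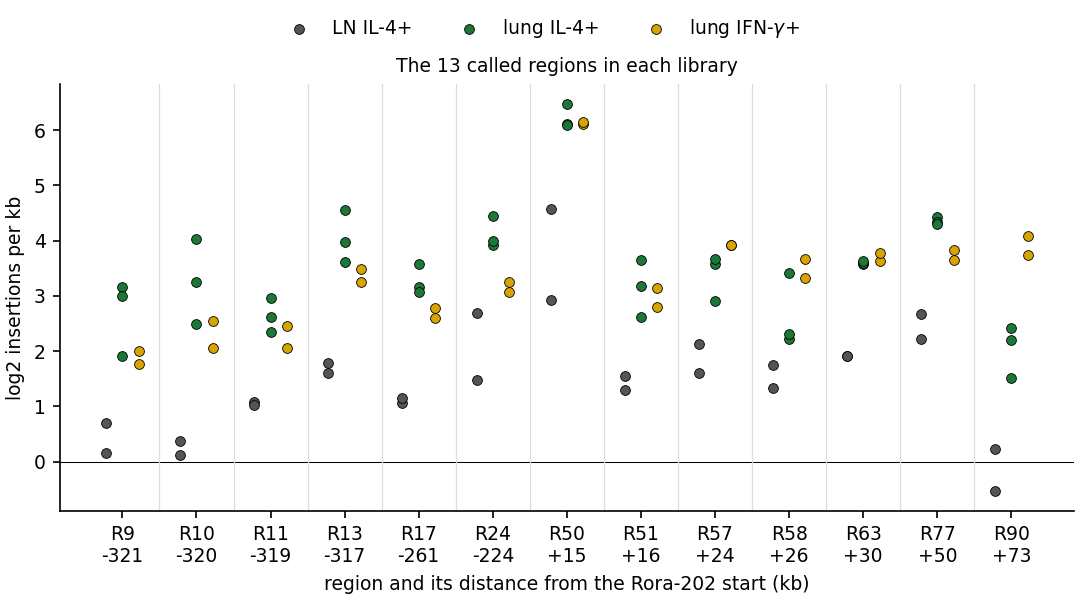
Log2 insertions per kb (vertical axis) in each of the 7 libraries for the 13 called regions, ordered along the gene with their distance from the Rora-202 start in kb. Every lung library lies above both LN libraries in each region, with R50 the most open (6.10 to 6.48 in lung) and R90 highest in the lung IFNγ+ libraries (4.09 and 3.75).

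Motifs were searched on both strands in the central 401 bp of each region. The nuclear receptor motif AGGTCA, the core of the element that RORα itself binds, was present in 28 of the 108 regions (25.9%), whereas 22.9% of all regions held it, and in 5 of the 13 called regions (R10, R17, R50, R57 and R63). The GATA motif AGATAA, read by Gata3 in Th2 cells, was present in 32 regions (29.6% compared with 19.8% of all regions). It was present in 18 of the 38 regions before the Rora-202 start (47.4%) and in 13 of the 64 after it (20.3%). The bZIP motif TGACTCA or TGAGTCA, bound by AP-1 factors, was present in 13.9% of the locus and in 11.5% of all regions, and in 26.3% of the regions before the start and 7.8% of those after it. Tcf7 motifs were split in the same way, with 28.9% before and 6.2% after the start, and ETS motifs with 10.5% and 1.6%. In windows of 200 bp, the locus and all regions held GATA motifs in 18.5% and 10.3% and bZIP motifs in 6.5% and 7.1%. The remaining shares were 12.0% for Runx (AACCACA, 13.6% of all regions), 1.9% for T-box (AGGTGTGA, 2.2%), 13.9% for Tcf7 (TTCAAAG or ATCAAAG, 16.3%), 5.6% for NFAT (TGGAAAA, 9.6%) and 6.5% for ETS (CAGGAAGT, 6.9%). Of the 13 called regions, 5 held AGGTCA, 5 GATA, 4 Runx, 3 bZIP, 3 NFAT, 1 Tcf7 and 0 T-box or ETS motifs. Whether these shares differ from those of all regions was not tested. These are matches of letters, and GATA and AGGTCA matches can overlap, as in R10.

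The pattern of Rora across the 7 libraries was compared with that of 3673 other genes by Pearson's correlation of log2 sums, as a description over libraries that share their populations. The 5 genes most like it were Amz2 (r = 0.996), Pmepa1 (r = 0.995), Sgms1 (r = 0.993), Sv2c (r = 0.992) and Gm49339 (r = 0.991). Their differences between lung IL-4+ and LN IL-4+ cells were 0.56, 0.46, 0.48, 0.98 and 2.08 on the log2 scale, and those between lung IFNγ+ cells and LN IL-4+ cells were 0.52, 0.39, 0.44, 0.85 and 2.00. With gene bodies alone, 3 of these genes were again among the first 5, and with Spearman's correlation 1 was.

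The other genes of the receptor family and the clock had called regions in numbers not far from the shares of all regions. The list of 19 genes, taken with 10 kb on each side, held 178 regions, of which 2 were called higher and 3 lower in lung IL-4+ than in LN IL-4+ cells, 5 higher and 2 lower in lung IFNγ+ cells than in the LN, and 0 between the lung populations (26 with an unadjusted p below 0.05 in limma, where 14.8% of all regions had one, and 1 called by voom). Of all regions, 1.05% were called higher and 0.695% lower in the first contrast and 2.17% higher and 0.862% lower in the second. The median difference of the 19 gene sums was -0.14, -0.13 and -0.02. The paralogue Rorb (4 regions) had no called region, and neither did the opposing repressors Nr1d1 (3) and Nr1d2 (7) or their common target Arntl (21). So few regions would hold few or no calls at the shares of all regions.

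Among the called members, Bhlhe40 came nearest to Rora. This gene encodes a repressor of the clock that also acts in cytokine-producing T cells, and its window summed to 182.1 and 210.4 in LN and 358.0 to 386.4 in lung libraries. Its called region (chr6:108671894-108672530) had 1.98 and 3.43 in LN IL-4+, 5.08, 4.66 and 4.49 in lung IL-4+ and 5.35 and 5.29 in lung IFNγ+ libraries. It rose by 2.04 (SE 0.36, limma with Benjamini-Hochberg adjusted p = 0.0172) in lung IL-4+ and by 2.61 (SE 0.39, adjusted p = 0.00658) in lung IFNγ+ cells. In the period gene Per3, the region at chr4:151005661-151006376 rose by 2.38 (SE 0.25, limma adjusted p = 0.00281) and 3.32 (SE 0.27, adjusted p = 0.000803), respectively, and the region at chr4:151006559-151007340 rose by 2.34 (SE 0.30, adjusted p = 0.00368) in lung IFNγ+ cells. The other regions that rose in lung IFNγ+ cells were in Cry1, a repressor of the clock (3.12, SE 0.71, limma adjusted p = 0.0357), and Tef, a PAR bZIP factor (3.22, SE 0.54, limma adjusted p = 0.0106).

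The regions called lower lay in Clock (1 of 4 regions) and Npas2 (2 of 12). Arntl had 0 calls among 21 regions, and so few calls are not read as a pattern. In Clock, the region at chr5:76250949-76251474 fell by 3.27 (SE 0.50, limma adjusted p = 0.00979) in lung IL-4+ and by 2.72 (SE 0.55, adjusted p = 0.0224) in lung IFNγ+ cells. In its paralogue Npas2, the region at chr1:39240899-39241695 fell by 3.23 (SE 0.38, limma adjusted p = 0.00411) and by 2.59 (SE 0.42, adjusted p = 0.00901), and another (chr1:39234648-39235256) fell by 1.70 (SE 0.24, adjusted p = 0.00775) in lung IL-4+ cells. Leaving out either lung IFNγ+ library left 1 call in the list between lung IFNγ+ cells and LN IL-4+ cells, and leaving out LN replicate 2 gave 14. Calls over all regions moved the same way in these fits. Between lung IL-4+ and LN IL-4+ cells, leaving out lung IL-4+ replicate 2 left 2 calls in the list. Over all regions it left 250 higher and 125 lower, from 1191 and 791.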

How the data were processed

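Chromatin accessibility was measured by ATAC-seq in 7 libraries, and every value column of the table was used (0 left out). The authors trimmed and mapped the reads to GRCm38 (Bowtie2 2.3.2), called summits per replicate (MACS2 2.1.1), merged regions, counted insertions and normalized them with voom (limma 3.38.3). The deposited values are log2 insertions per kilobase, used as they stand with no pseudocount or filter. Tied values in each library gave rebuilt insertion counts, which are lower bounds. Counts limit the precision, and PCR duplicates are not independent molecules.

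Every region's deposited log2 values entered 1 fit in limma 3.58.1 (R 4.3.3) with 1 mean per population. Moderated variances followed a trend, p-values were adjusted by Benjamini-Hochberg within a contrast, and calls had an adjusted p under 0.05 with at least a 3-fold difference. The procedure was run on simulated data with far less noise than these libraries have. That run cannot show how well the fit finds differences in the real data. Sums, motifs and figures used Python 3.11.15, numpy 2.4.6, pandas 2.3.3, pysam 0.24.0 and matplotlib 3.10.9, with GENCODE M21 annotation and the RefSeq GRCm38 genome.

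The members, gene lists and motifs were chosen with earlier results of these data known. Regions named in the text were those called in any contrast, those at a coding Rora start, and the densest and widest. Those accessible in exactly 1 population and those nearest the window's edges were named as well. Further genes named were the 5 most like Rora, its neighbours and called members of the list. R26 and R37 were chosen after their values were seen. Groups follow the labelled tissue and reporter. Alternatives were other scalings, windows, thresholds, models and libraries left out, a spread class term and a replicate block. Those of the clock list were chosen after seeing the data. One member of the list is not reported here by name.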

Additional observations from a re-analysis of the deposited data

How the results depend on the processing

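The whole-locus Rora sums kept their direction in all 3 contrasts under every setting run. Between the lung populations, the sum after the Rora-202 start turned from 0.02 to as low as -0.14, with a spread class term, and that at the start from -0.10 to 0.06 with quantile normalization. Between lung IL-4+ and LN IL-4+ cells the difference was 1.08 with median centring, 1.15 with quantile normalization, 1.21 as the mean log2 density over regions, 1.14 in the gene body alone and 1.24 away from the starts, and 1.08 to 1.13 with each library left out. Between lung IFNγ+ cells and LN IL-4+ cells these were 1.00, 0.89, 1.03, 0.97 and 1.05, and 0.91 to 0.95. Between the lung populations they were 0.09 (median centring), 0.26 (quantile normalization) and 0.20 (away from the starts), and 0.16 to 0.18.

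Counts of calls moved more, and the cause was not tested. Between lung IL-4+ and LN IL-4+ cells, 11 became 26 with a spread class term, 7 with only these populations and 3 to 16 with each library left out. Between lung IFNγ+ cells and LN IL-4+ cells, 8 became 4 on the log2(density + 1) scale, 14 with a spread class term, 5 with only these populations and 0 to 13 with each library left out. Between the lung populations, 0 became 1 on the log2(density + 1) scale, 2 with voom, 3 with a spread class term, 4 with array weights, 2 with only these populations and 0 to 2 with each library left out. In the clock list, voom gave 16 and 1 calls in the contrasts of lung IFNγ+ with LN IL-4+ and of the lung populations, and leaving out each library gave 2 to 7, 1 to 14 and 0 to 1 calls in the 3 contrasts. Where a library is left out of a pair, the lone sample is assumed to vary like the other populations. Calls over all regions moved as well. With a spread class term, 1191 higher and 791 lower became 2436 and 1580 in the first contrast. In the second, 2469 and 981 became 3241 and 2017, and in the third 123 and 441 became 570 and 746. Array weights gave 3121 and 3440 in the third. On the log2(density + 1) scale, the second had 2134 and 869. With only the populations compared, they were 639 and 425, 1789 and 733, and 294 and 901. Whether Rora moved apart from these was not tested.

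The labels do not tie replicate numbers to animals, and deviations of same-numbered libraries correlated between -0.542 and 0.057. With 2 libraries in a group these mirror each other and cannot show whether samples were paired. With a replicate block, Rora calls were 0, 1 and 0 and clock list calls 0, 2 and 0. The Rora sum differences were 1.09, 0.93 and 0.16. Over all regions this fit called 0 higher and 0 lower between lung IL-4+ and LN IL-4+ cells, and likewise between the lung populations. Between lung IFNγ+ cells and LN IL-4+ cells it called 468 higher and 88 lower, from 2469 and 981. Calls lost in this fit were therefore not particular to Rora or the clock list. Each call of a Rora region held in 2 to 15 of 16 other settings, with the direction kept in all of them. Depth limits regions such as R37, with 0 to 62 rebuilt insertions.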
